A study of Mus musculus with 55 samples.

Results

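The FOS and JUN genes, whose proteins pair to form the transcription factor AP-1, were followed through 55 RNA samples of primary mouse neurons at rest and after stimulation. The 6 genes Fos, Fosb, Fosl2, Jun, Junb and Jund were chosen by family name from 29684 genes with a symbol in the count tables of 2 experiments. The choice was made with earlier results of these data known. The study itself names Fos, Fosb, Fosl2 and Junb among early genes that changed after every stimulus it compared in mature neurons. Of the 6, 5 passed the filter on low counts in both experiments (above 5 CPM in at least 2 samples, where CPM is the count of a gene per 1000000 counts of the library) and were tested. Jund was represented by a transcript with 3 counts over the 28 samples of one experiment and 2 counts over the 27 samples of the other, so it was not tested and its level could not be read. Other transcripts of Jund were not analysed here.

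Neurons came from cortex and hippocampus of CD1 mouse embryos of mixed sex at E16.5 and were grown as neuron-enriched cultures, so each sample is RNA of a whole culture. The maturation experiment held 28 samples at 7 days in vitro (7DIV) and 23DIV, the later of which the study groups as 21DIV. At each stage cultures were unstimulated (Basal, n = 3) or received 55 mM KCl, which depolarizes the membrane, or 4APBic. The last joins bicuculline at 50 μM, which blocks inhibition through GABA-A receptors, to 4-aminopyridine at 2.5 mM, which blocks certain potassium channels. They were taken at 15 or 180 min (n = 3 for each time and stimulus, except 2 and 2 for 4APBic at 23DIV). The stimuli experiment held 27 samples at 21DIV, at rest (Basal, n = 3), after 48 h in 1 μM of the sodium channel blocker tetrodotoxin (BasalTTX, n = 4), or at 15, 45 or 180 min of 55 mM KCl (n = 2 each) or 50 μM bicuculline alone (n = 2 each). The remaining stimulus was washing out the toxin after 48 h (TTXwithdrawal, n = 3 at 15 and 180 min and 2 at 45 min), which was compared with BasalTTX. Every control was labelled 0 min, so all times of a stimulus share the same control. Changes with time alone thus cannot be told apart from those of the stimulus. The study states that control wells were handled or washed like the treated ones. Nothing used here says whether replicates came from separate dissections, so the p-values measure the spread between these samples, which may in part be technical.

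FOS proteins bind DNA only as a dimer with a partner such as a JUN protein, whereas JUN proteins can also pair among themselves. In neurons calcium entry activates kinases that act on factors already bound at Fos and other early genes, among them CREB and serum response factor, and these genes are transcribed within minutes, before any new protein is made. Jun and Jund are known to be present at rest as well, and Fosl2 encodes Fra-2, a FOS protein known for a slower and longer presence.

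Within the 250 bases before the RefSeq start of each gene (GRCm38.p6), the sequence TGACG, the core of the cAMP response element to which CREB binds, occurred in Fos, Fosb and Junb and not in Fosl2, Jun or Jund, with both strands searched for every sequence. It was present in 17.9% of all 32536 promoter windows of that length. The full element TGACGTCA, the AP-1 site TGACTCA and the CArG box of serum response factor occurred in none of the 6 windows, against 1.56%, 4.45% and 1.48% of all windows. Bases farther from the start were not searched, so a gene without a match here may hold one there. Fos alone among the members held the TATA sequence TATAAA (12.3% of all windows), from 33 to 28 bases before its start. The last 120 bases before the start are shown for these 3 genes and, for contrast, for Jun, written 5′ to 3′ on the strand of the gene, with TGACG and TATAAA in capitals. Fos held a second TGACG from 129 to 125 bases before the start, outside the stretch shown.
Fos, chr12:85473770-85473889, plus strand: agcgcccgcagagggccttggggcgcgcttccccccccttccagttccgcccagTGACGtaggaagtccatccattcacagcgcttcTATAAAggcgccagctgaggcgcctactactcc
Fosb, chr7:19310046-19310165, minus strand: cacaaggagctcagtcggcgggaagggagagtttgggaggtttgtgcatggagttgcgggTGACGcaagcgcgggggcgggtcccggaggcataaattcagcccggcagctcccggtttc
Junb, chr8:84978749-84978868, minus strand: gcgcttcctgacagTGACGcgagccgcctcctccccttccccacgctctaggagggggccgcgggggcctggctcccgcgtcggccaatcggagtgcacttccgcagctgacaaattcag
Jun, chr4:95052223-95052342, minus strand: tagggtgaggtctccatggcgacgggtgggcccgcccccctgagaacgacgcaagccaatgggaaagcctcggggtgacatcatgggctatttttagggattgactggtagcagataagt

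These matches describe letters in a window and say nothing of binding in these cultures. The start used for the Fosb window lies inside the span that RefSeq gives for the gene. Fos spans 85473890 to 85477274 on chromosome 12 of GRCm38, Fosb 19302696 to 19310118 on chromosome 7, and Fosl2 32136472 to 32157840 on chromosome 5. Jun spans 95049036 to 95052222 on chromosome 4, and Junb 84976909 to 84978748 and Jund 70697739 to 70700616 on chromosome 8. The libraries read the 3′ ends of transcripts, so a count does not grow with transcript length. Fosb had 2 annotated transcripts with nearly the same counts in the maturation experiment (10448 and 10446 over all samples), so splice forms such as those of full-length FosB and the truncated ΔFosB could not be told apart.

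The counts that fell on genes added up to 1659722 to 4474968 in a 7DIV sample, 1784170 to 14012872 in a 23DIV sample and 1177500 to 3909487 in the stimuli experiment. At its lowest in the maturation experiment, Fos rested on 63 to 125 counts per sample. In BasalTTX counts were lower, at 9 to 33 per sample for Fos and 6 to 14 for Fosb. They were 19 to 34 for Fosl2 and 16 to 41 for Junb. The differences given below between BasalTTX and other groups rest on these counts. The 9 neuron markers checked had counts in every group, whereas 7 microglia markers of the tables summed to at most 21.4 CPM in any sample. A letter in the sample descriptions, whose meaning is not given, was A for 180 min and TTX samples and B for 15 and 45 min samples of KCl and bicuculline in the stimuli experiment, with both letters in Basal. In the maturation experiment 7DIV samples carried B, except Basal replicate 2 with A, and 23DIV samples carried C, D or E, so letter and stage cannot be told apart. The same holds for 4APBic at 180 min of 23DIV, whose samples alone carried E.

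At rest Fos, Fosb and Fosl2 were lower in the older cultures, and Jun and Junb did not pass the test. In CPM, Fos was 64.4, 71.2 and 77.2 in the 7DIV Basal samples and 21.6, 11.3 and 12.1 in the 23DIV Basal samples. Fosb was 175, 57.7 and 46.9 at 7DIV and 13.8, 9.66 and 13.9 at 23DIV, and Fosl2 was 111, 125 and 102 and 43.2, 29.3 and 45.7. The stages did not overlap for any of the 3 genes, and one 7DIV sample (replicate 2, the only one with letter A) lay far above the other two for Fosb alone. Without that sample the log2 difference of Fosb was -2.04 with an adjusted p of 6.71e-05. The log2 differences were -2.23 ± 0.24 (log2 ± SE, adjusted p = 8.95e-06) for Fos, -2.85 ± 0.41 (adjusted p = 1e-04) for Fosb and -1.48 ± 0.19 (adjusted p = 3.27e-05) for Fosl2, that is, 4.68-fold, 7.23-fold and 2.79-fold lower at 23DIV. Of all 10510 genes tested in these 6 samples, 14.9% were lower, so a fall between stages was common, and the letters of the descriptions separated the same samples. A gene counts here as changed, or passing, at an adjusted p under 0.05 by the quasi-likelihood test of edgeR, adjusted over all genes by the Benjamini-Hochberg method, and a difference of at least 1.5-fold.

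Jun, the founding JUN member, was 184, 134 and 198 CPM at 7DIV and 223, 159 and 196 CPM at 23DIV, and the ranges overlapped, with a log2 difference of 0.19 ± 0.17 (log2 ± SE, adjusted p = 0.417). Junb, which can act as a weaker activator than Jun, was 42.2, 31.9 and 27.6 CPM and 26.1, 14.7 and 25.1 CPM, and did not overlap, but its difference of -0.58 ± 0.26 (log2 ± SE, adjusted p = 0.0905) missed the threshold. It passed when all 28 samples of the experiment were fitted together, at -0.60 and an adjusted p of 0.0418. Glial markers differed between the same samples. Of 9 astrocyte markers 8 were higher at 23DIV, and their summed level was 588 to 863 CPM at 7DIV and 4645 to 5669 CPM at 23DIV. All 8 tested oligodendrocyte markers were higher too (471 to 749.8 CPM at 7DIV and 2478 to 3275 CPM at 23DIV), and of 9 neuron markers 6 were higher and 3 lower. In RNA of whole cultures, fewer cells that carry a transcript and less of it per cell cannot be told apart, and the part of the glial markers in the FOS differences was not tested.

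At 7DIV the members rose after KCl for 180 min and passed the test in no other condition. Fos went from 64.4 to 77.2 CPM at rest to 288, 268 and 314 CPM, and Fosb from 46.9 to 175 to 308, 502 and 448 CPM. Jun was 247, 379 and 439 CPM against 134 to 198 at rest, and Junb 169.8, 248 and 208 against 27.6 to 42.2. All 3 samples lay above every Basal sample for each of these 4 genes. The changes were 2.03 ± 0.28 (log2 ± SE, adjusted p = 3.72e-05) for Fos, 2.18 ± 0.35 (adjusted p = 0.000328) for Fosb, 1.04 ± 0.23 (adjusted p = 0.0133) for Jun and 2.63 ± 0.23 (adjusted p = 2.6e-08) for Junb, the largest of the members in this condition at 6.21-fold. Thus 4 of 5 members rose, where 1.05% of all 11746 genes tested did. Fosl2 was 102, 279 and 217 CPM against 102 to 125 at rest, with overlap and a change of 0.83 ± 0.31 (log2 ± SE, adjusted p = 0.211). It passed without replicate 1 of KCl, at 1.14 and an adjusted p of 0.0473. Without the Basal sample that was high in Fosb (replicate 2), the log2 change of Fosb was 3.02. The astrocyte markers summed to 893 to 1200.2 CPM in these samples against 588 to 863 at rest, and their part in the rises was not tested. The call on Jun was lost without Basal replicate 3 or without replicate 2 or 3 of KCl, at adjusted p between 0.0607 and 0.0988.

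After 15 min of KCl, or after 4APBic for 15 or 180 min, 0 of 5 members passed at 7DIV by edgeR's quasi-likelihood test and 0 by DESeq2, and 0% of all genes passed edgeR's test in each of the 3 comparisons. Over all genes 659, 793 and 701 had an unadjusted p under 0.05 after KCl for 15 min and 4APBic for 15 and 180 min, and DESeq2 called 3, 3 and 0. At an unadjusted p under 0.05 there was 1 member in each, namely Fosb at 15 min of KCl (-1.05 ± 0.36, log2 ± SE) and of 4APBic (-1.28 ± 0.37), and Fos at 180 min of 4APBic (0.69 ± 0.28). In CPM, Fosb was 47.3, 49.9 and 34.1 at 15 min of KCl and 31.7, 44.3 and 38.4 at 15 min of 4APBic, below every Basal sample in the second case and overlapping in the first. Fos was 102, 144 and 97.1 CPM at 180 min of 4APBic, above every Basal sample. Without replicate 2 of Basal, the sample that was high in Fosb, the changes of Fosb at 15 min were -0.21 with KCl and -0.44 with 4APBic on the log2 scale. Junb after 4APBic for 180 min, at 47.1, 49.7 and 41.05 CPM, overlapped with Basal, and its change was 0.46 ± 0.23 (log2 ± SE, adjusted p = 0.832).

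**Figure D1:**
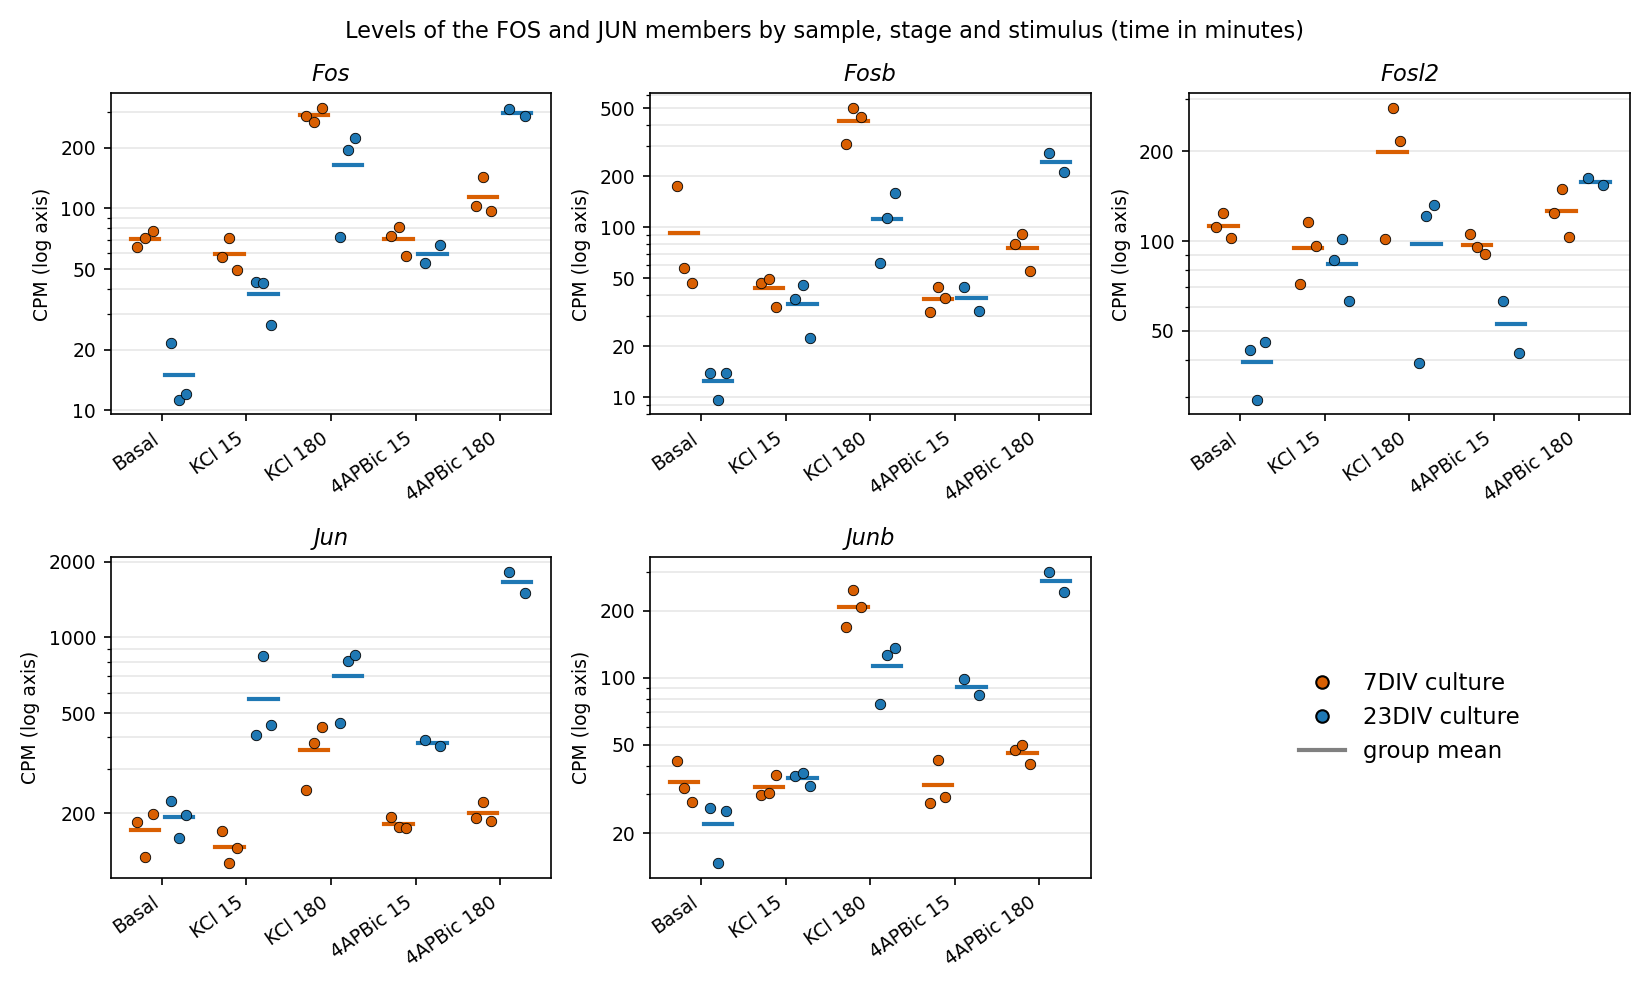
Level of each member in every sample of the maturation experiment, in CPM on a log axis, by stimulus and time in minutes, with 7DIV cultures in orange and 23DIV cultures in blue. Points are samples and short bars are group means. The 23DIV Basal samples of Fos, Fosb and Fosl2 lie below all 7DIV Basal samples, and the 23DIV samples of 4APBic at 180 min lie far above those at rest for all 5 genes.

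At 23DIV all 5 members rose after KCl at both times and after 4APBic at 180 min, and Fos and Junb rose after 4APBic at 15 min. After 15 min of KCl, Fos was 43.2, 42.9 and 26.5 CPM against 21.6, 11.3 and 12.1 at rest, and Fosb 38.1, 45.8 and 22.4 against 13.8, 9.66 and 13.9. Fosl2 was 86.7, 102 and 63.2 CPM against 43.2, 29.3 and 45.7. None of these 3 genes overlapped with rest. Jun was 409, 841 and 449 CPM against 223, 159 and 196, and Junb 36.3, 37.4 and 32.7 against 26.1, 14.7 and 25.1, also without overlap. The changes were 1.34 ± 0.29 (log2 ± SE, adjusted p = 0.00385) for Fos, 1.49 ± 0.37 (adjusted p = 0.0116) for Fosb, 1.08 ± 0.31 (adjusted p = 0.0278) for Fosl2 and 1.55 ± 0.23 (adjusted p = 0.000117) for Jun. Junb changed least, by 0.68 ± 0.22 (log2 ± SE, adjusted p = 0.0477). All 5 of 5 tested members thus rose, where 3.21% of all genes did. The call on Jun held with each replicate left out. That on Junb was lost without any one of the 3 KCl replicates or without Basal replicate 2 or 3 (adjusted p 0.0593 to 0.307), and that on Fosl2 without replicate 1 or 2 of KCl or Basal replicate 2 or 3 (0.0613 to 0.177). For Fosb it was lost without replicate 2 of KCl (0.0552) or of Basal (0.0836), and for Fos in a fit of the compared groups only (0.0589), which also lost Fosl2 (0.0912) and Junb (0.124).

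By 180 min of KCl, Fos was 72.2, 194 and 223 CPM and Fosb 61.3, 114 and 159.8 CPM. Jun was 457, 808 and 851 CPM, Junb 75.9, 126 and 137 CPM and Fosl2 38.9, 122 and 132 CPM. Replicate 1 was the lowest of the 3 for every one of the 5 genes, and for Fosl2 it lay within the Basal range. The changes against rest were 3.45 ± 0.30 (log2 ± SE, adjusted p = 6.19e-09) for Fos, an 10.96-fold rise, 3.15 ± 0.37 (adjusted p = 4.22e-06) for Fosb and 2.35 ± 0.22 (adjusted p = 2.63e-08) for Junb. Jun changed by 1.87 ± 0.23 (log2 ± SE, adjusted p = 7.82e-06) and Fosl2 by 1.30 ± 0.31 (adjusted p = 0.0113). Again 5 of 5 tested members rose, where 2.98% of all genes did. The call on Fosl2 was lost without Basal replicate 2 or without replicate 2 or 3 of KCl (adjusted p 0.0759 to 0.101). The summed astrocyte markers ranged from 2853 to 6017 CPM in these samples against 4645 to 5669 at rest. Oligodendrocyte markers summed to 1255 to 1725 CPM against 2478 to 3275, without overlap, and the part of these markers in the changes was not tested.

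After 15 min of 4APBic, Junb stood at 98.8 and 83.5 CPM against 26.1, 14.7 and 25.1 at rest, and Fos at 53.7 and 65.6 CPM against 21.6, 11.3 and 12.1. Both lay above every Basal sample. With 2.04 ± 0.24 (log2 ± SE, adjusted p = 2.78e-05) for Junb and 2.01 ± 0.33 (adjusted p = 0.00446) for Fos, 2 of 5 members rose, where 0.0511% of all genes did, which was 6 genes in all. The call on Fos was lost without Basal replicate 2 or 3 or 4APBic replicate 2 (adjusted p 0.051 to 0.16). Fosb at 44.5 and 32.3 CPM and Jun at 390.1 and 369 CPM also lay above every Basal sample, but their changes of 1.59 ± 0.44 and 0.98 ± 0.25 (log2 ± SE) did not pass the adjustment over all genes (adjusted p = 0.611 and 0.4). Fosb passed in a fit of the compared groups only, with an adjusted p of 0.0192.

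After 180 min of 4APBic at 23DIV all 5 members lay above rest, and Jun was higher than in any other sample of the maturation experiment. Fos was 309.7 and 287 CPM, Fosb 275 and 212 CPM and Fosl2 162 and 154 CPM. Jun was 1827 and 1507 CPM and Junb 299.7 and 244 CPM. Both samples lay far above rest for every gene. The changes were 4.33 ± 0.31 (log2 ± SE, adjusted p = 1.69e-10) for Fos, 4.28 ± 0.40 (adjusted p = 3.22e-08) for Fosb, 2.00 ± 0.34 (adjusted p = 0.000137) for Fosl2, 3.11 ± 0.25 (adjusted p = 1.42e-09) for Jun and 3.62 ± 0.24 (adjusted p = 1.79e-11) for Junb. These are 20.1-fold for Fos and 19.4-fold for Fosb, but 4.00-fold for Fosl2. All 5 of 5 tested members rose, where 7.39% of all genes did. In the same samples the astrocyte markers summed to 1762 to 3386 CPM against 4645 to 5669 at rest and the oligodendrocyte markers to 1055 to 1715 CPM against 2478 to 3275, and the part of this in the changes was not tested.

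**Figure D2:**
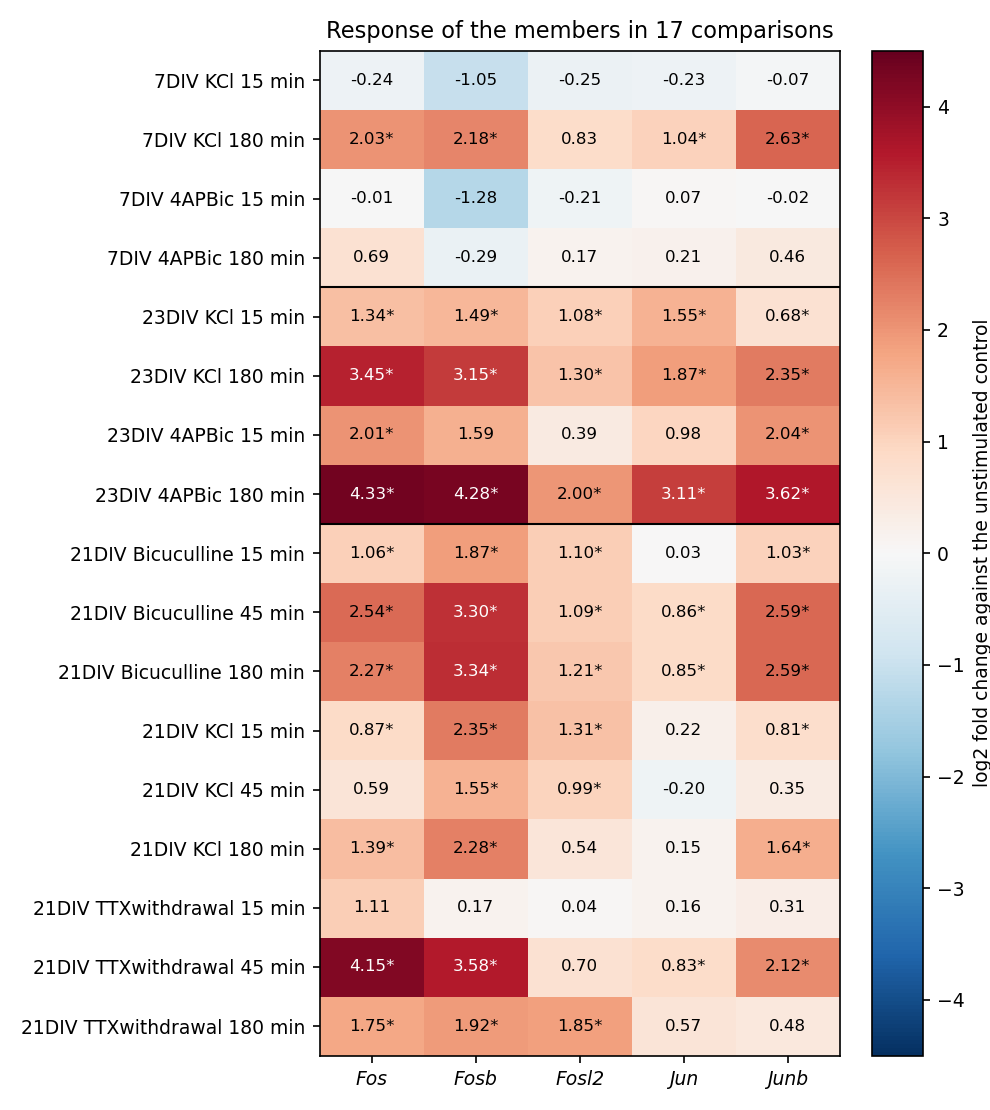
Log2 fold change of the 5 tested members against the unstimulated control of the same experiment and stage, in 17 comparisons, one per line. Red is higher and blue lower after the stimulus, and an asterisk marks a change with an adjusted p under 0.05 and at least 1.5-fold. The 7DIV comparisons hold asterisks at KCl for 180 min only, and no change that passed was a fall.

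Whether the response itself differed between stages was tested as the difference of the 2 log2 changes, in the same fit of 28 samples. For 4APBic at 180 min the response of all 5 tested members was larger at 23DIV, where 2.58% of all genes had a larger response there (adjusted p under 0.05). The difference was 4.56 ± 0.53 (log2 ± SE, adjusted p = 5.41e-06) for Fosb, 3.64 ± 0.41 (adjusted p = 5.41e-06) for Fos and 1.83 ± 0.46 (adjusted p = 0.0183) for Fosl2. For the JUN genes it was 2.90 ± 0.34 (log2 ± SE, adjusted p = 5.41e-06) for Jun and 3.16 ± 0.33 (adjusted p = 1.77e-06) for Junb. Only the call on Fosl2 was lost with 1 sample left out, which happened for 4APBic replicate 2 or Basal replicate 2 of 23DIV and 4APBic replicate 3 of 7DIV (adjusted p 0.0523 to 0.0805). For Fosb the difference was 3.71 without the high Basal sample at 7DIV, with an adjusted p of 9.93e-06. The part of the lower resting level at 23DIV in the larger response was not tested. In level, the 23DIV samples after 4APBic exceeded all 7DIV samples after 4APBic at 180 min for each of the 5 genes.

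For KCl at 15 min the response of 3 of 5 members was larger at 23DIV, where 0.86% of all genes had a larger response there. The difference was 2.54 ± 0.52 (log2 ± SE, adjusted p = 0.00875) for Fosb, 1.79 ± 0.33 (adjusted p = 0.00418) for Jun and 1.58 ± 0.40 (adjusted p = 0.0333) for Fos. The calls on Fosb and Jun held with each sample left out, and without the 7DIV Basal sample high in Fosb its difference was 1.70. The call on Fos was lost without any one of 9 samples, namely replicates 2 and 3 of Basal and 1 and 2 of KCl at 23DIV, and all 3 of Basal and replicates 1 and 3 of KCl at 7DIV (adjusted p 0.0573 to 0.117). In level the stages after 15 min of KCl were closer than at rest, with Fosb at 47.3, 49.9 and 34.1 CPM at 7DIV and 38.1, 45.8 and 22.4 CPM at 23DIV. Jun, which had the same resting level at both stages within the spread, was 170.3, 126 and 145 CPM at 7DIV and 409, 841 and 449 CPM at 23DIV, with no overlap.

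After KCl for 180 min, 0 of 5 members differed in response between stages by edgeR's quasi-likelihood test, where 0.775% of all genes did, with 2 members at an unadjusted p under 0.05 and 1 by DESeq2. Fos had a difference of 1.43 ± 0.39 (log2 ± SE, adjusted p = 0.0781), and it passed without 23DIV KCl replicate 1 (1.78, adjusted p = 0.00164) or without 23DIV Basal replicate 1 (1.76, adjusted p = 0.0234). Junb had a difference of -0.28 ± 0.31 (log2 ± SE, adjusted p = 0.74), the only one of the 5 below 0. For 4APBic at 15 min Junb was the single gene of all 11746 to pass (0.00851% of genes), with a difference of 2.06 ± 0.34 (log2 ± SE, adjusted p = 0.017). That call was lost without any one of 6 samples, namely either 4APBic replicate or Basal replicate 2 at 23DIV, and 4APBic replicates 1 and 3 and Basal replicate 2 at 7DIV (adjusted p 0.0615 to 0.3). By DESeq2, 3 members passed in this comparison.

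**Figure D3:**
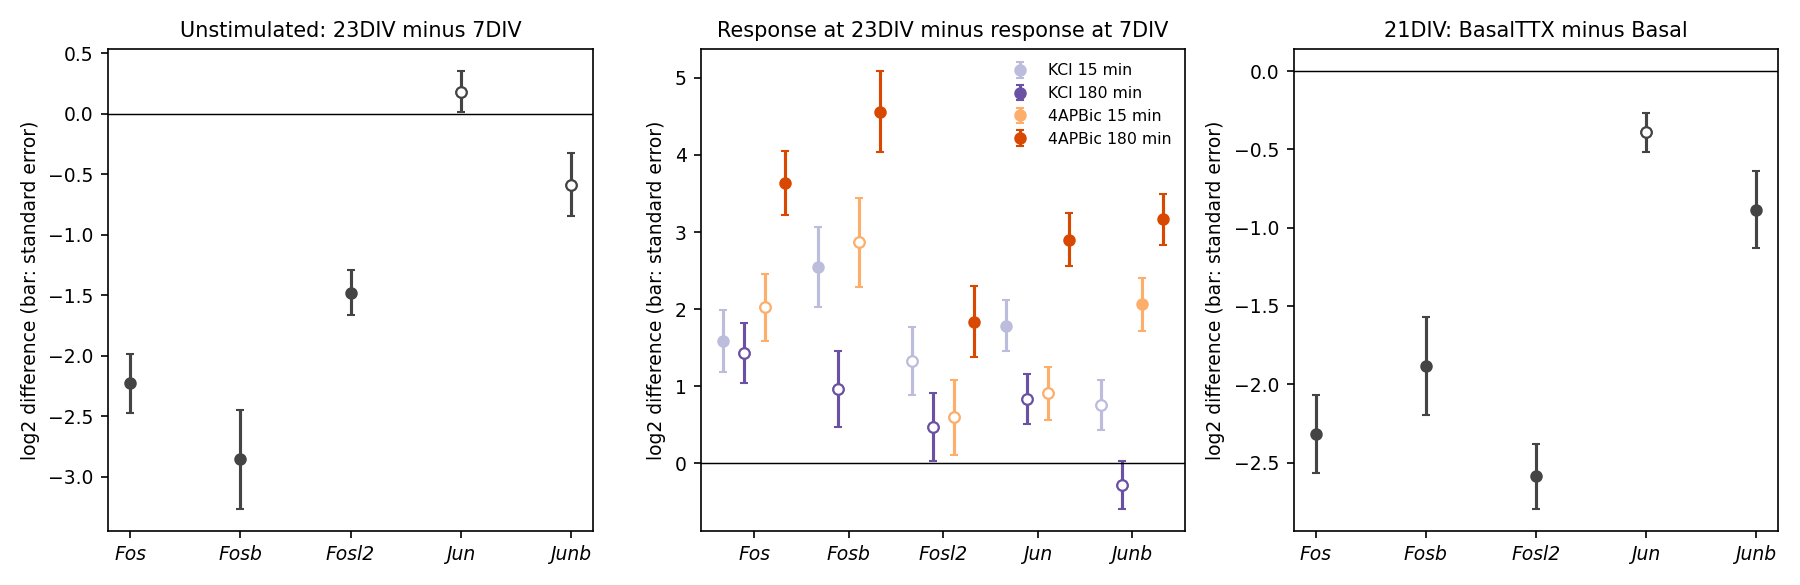
Log2 differences (points) with standard errors (bars) of the 5 tested members, between Basal cultures of 23DIV and 7DIV (left), between the responses to each stimulus at 23DIV and 7DIV (middle), and between BasalTTX and Basal cultures at 21DIV (right). Filled points passed the test and open points did not, where left and right need at least 1.5-fold as well as an adjusted p under 0.05. Fos, Fosb and Fosl2 lie below 0 on the left and right, and all 5 members lie above 0 for 4APBic at 180 min.

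At 21DIV, cultures held for 48 h in tetrodotoxin were compared with untreated cultures. Of 5 members 4 were lower in BasalTTX than in Basal, where 10.8% of all 12027 genes were. Fosl2 was 12.6, 11.03, 13.6 and 12.3 CPM in BasalTTX against 60.7, 76.7 and 86.8 CPM in Basal, the largest difference of the members, at 6.01-fold. Fos was 5.99, 19.2, 6.44 and 5.42 CPM against 37.5, 48.01 and 51.2 CPM, and Fosb 3.99, 4.07, 5.01 and 5.06 CPM against 15.5, 17.9 and 18.2 CPM. One BasalTTX sample (replicate 2) stood apart from the other 3 in Fos, and it still lay under every Basal sample. Junb was 15.3, 15.1, 11.4 and 14.8 CPM against 25.8, 23.4 and 30.3 CPM, and no gene of the 4 overlapped between groups. The log2 differences were -2.59 ± 0.21 (log2 ± SE, adjusted p = 1.23e-12) for Fosl2, -2.32 ± 0.25 (adjusted p = 1.51e-09) for Fos, -1.88 ± 0.31 (adjusted p = 7.79e-06) for Fosb and -0.89 ± 0.25 (adjusted p = 0.00493) for Junb. Jun was 293, 293, 265 and 224 CPM against 329, 322 and 402 CPM, and its difference of -0.39 ± 0.12 (log2 ± SE, adjusted p = 0.0148) was under 1.5-fold.

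Glial markers moved in the same samples. All 9 astrocyte markers were higher in BasalTTX, by a median log2 difference of 1.60, and their summed level was 7409 to 8456 CPM against 2621 to 3221 CPM. Of 8 tested oligodendrocyte markers 6 were higher (2244 to 2293 CPM against 811 to 1254 CPM), and of 9 neuron markers 2 were lower, with a sum of 4522 to 5016 CPM against 5354 to 5624 CPM. The part of these in the fall of the members was not tested.

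After bicuculline alone at 21DIV, Fos, Fosb and Junb had risen at 15 min and rose further to 45 min, Jun rose between these times, and Fosl2 had risen at 15 min with no later change that passed. At 15 min 4 of 5 members had risen, where 2.4% of all genes had. Fosb was 70.4 and 51.3 CPM at 15 min, 159 and 178 at 45 min and 188 and 159 at 180 min, against 15.5, 17.9 and 18.2 at rest. Fos was 100.4 and 87.3 CPM at 15 min, 261 and 267 at 45 min and 225 and 213 at 180 min. Both genes lay above every Basal sample at each time. The changes of Fosb were 1.87 ± 0.24 (log2 ± SE, adjusted p = 1.66e-06), 3.30 ± 0.21 and 3.34 ± 0.21. The last ranked 2 among the 12027 genes tested, ordered from the largest rise down. Those of Fos were 1.06 ± 0.21 (log2 ± SE, adjusted p = 0.00172), 2.54 ± 0.20 and 2.27 ± 0.20.

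Junb was 61.9 and 42.3 CPM at 15 min of bicuculline, 149 and 169 at 45 min and 162 and 159 at 180 min, against 25.8, 23.4 and 30.3 at rest. Fosl2 was 168 and 149 CPM at 15 min, 117 and 198 at 45 min and 165 and 180.5 at 180 min, so that its levels at the 3 times overlapped. Jun was 352 and 367 CPM at 15 min, inside the Basal range, then 540.4 and 728 CPM at 45 min and 679 and 585 CPM at 180 min, above every Basal sample. The changes were 1.03 ± 0.24 (log2 ± SE, adjusted p = 0.00867), 2.59 ± 0.21 and 2.59 ± 0.21 for Junb. For Fosl2 they were 1.10 ± 0.18 (log2 ± SE, adjusted p = 0.000156), 1.09 ± 0.18 and 1.21 ± 0.18. For Jun they were 0.03 ± 0.15 (log2 ± SE, adjusted p = 0.946), 0.86 ± 0.14 and 0.85 ± 0.14. All 5 of 5 tested members were higher at 45 min (4.5% of all genes) and at 180 min (0.69%).

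Of the members called at 15 min of bicuculline, Fos lost its call without replicate 2 (adjusted p = 0.0978) and Junb without the same sample (0.399), and Fosl2 lost its call at 45 min without replicate 2 of that time (0.0643). With the letter of the sample descriptions as a term, chosen after seeing the data, Fos, Fosl2 and Junb at 15 min no longer passed, with adjusted p of 0.108, 0.0531 and 0.207. The summed astrocyte markers were 4534 to 4846 CPM at 15 min, 5192 to 5885 at 45 min and 3108 to 3453 at 180 min against 2621 to 3221 at rest, and their part in the rises was not tested.

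After KCl at 21DIV Fos, Fosb, Fosl2 and Junb were above rest at 15 min, Fosb and Fosl2 at 45 min, and Fosb, Junb and Fos at 180 min. Jun did not pass at any time. Fosb was 69.5 and 104 CPM at 15 min, 49.7 and 50.8 at 45 min and 99.3 and 68.9 at 180 min, above every Basal sample each time. Fosl2 was 191 and 178 CPM at 15 min, 145 and 151 at 45 min and 115 and 103 at 180 min. Fos was 82.1 and 83.8 CPM at 15 min, 62.6 and 74.1 at 45 min and 115 and 122 at 180 min. Each of the 3 genes lay above the Basal range at all 3 times, with Fosl2 highest at the first. At 15 min 4 of 5 members had risen (4.52% of all genes), with 2.35 ± 0.22 (log2 ± SE, adjusted p = 7.62e-10) for Fosb, 1.31 ± 0.18 (adjusted p = 2.55e-06) for Fosl2, 0.87 ± 0.21 (adjusted p = 0.00474) for Fos and 0.81 ± 0.23 (adjusted p = 0.023) for Junb. At 45 min 2 of 5 were higher than at rest (0.607% of all genes), Fosb by 1.55 ± 0.23 (log2 ± SE, adjusted p = 0.00027) and Fosl2 by 0.99 ± 0.18 (adjusted p = 0.0024). At 180 min 3 of 5 were higher (0.507%), Fosb by 2.28 ± 0.24 (log2 ± SE, adjusted p = 9.95e-08), Junb by 1.64 ± 0.24 (adjusted p = 3.13e-05) and Fos by 1.39 ± 0.21 (adjusted p = 8.98e-05).

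Junb was 44.3 and 48.3 CPM at 15 min of KCl, 38.2 and 29.2 at 45 min, where it overlapped with rest, and 91.2 and 75.2 at 180 min. Jun was 385 and 431 CPM at 15 min, 326 and 283 at 45 min and 367 and 411 at 180 min, against 329, 322 and 402 at rest. It overlapped with rest at each time, with log2 changes of 0.22 ± 0.15, -0.20 ± 0.15 and 0.15 ± 0.15. The early call on Fos was lost without replicate 2 of KCl (adjusted p = 0.0558). That on Junb was lost without either KCl replicate or Basal replicate 1 or 2 (0.0569 to 0.185), and that on Fosl2 at 45 min without replicate 1 of that time (0.0584). With the letter of the descriptions as a term the calls on Fos (0.183) and Junb (0.321) at 15 min and on Fosl2 (0.216) at 45 min were lost as well. The astrocyte markers summed to 4755 to 4793 CPM at 15 min, 4367 to 4375 at 45 min and 3615 to 3627 at 180 min against 2621 to 3221 at rest. The neuron markers summed to 6553 to 7293, 6386 to 6436 and 6068 to 6286 CPM against 5354 to 5624, and the part of either in the changes was not tested.

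Withdrawal of tetrodotoxin was followed by a peak of Fos, Fosb and Junb at 45 min and a later rise of Fosl2. At 15 min 0 of 5 members passed by edgeR's quasi-likelihood test and 0 by DESeq2, as did 0% of all genes, and 1 member had an unadjusted p under 0.05. Over all genes 758 had such a p and DESeq2 called 0. The member was Fos, at 19.6, 19.4 and 19.7 CPM against 5.99, 19.2, 6.44 and 5.42 in BasalTTX, with a change of 1.11 ± 0.30 (log2 ± SE, adjusted p = 0.544). The 3 samples were nearly equal and lay above every BasalTTX sample, although replicate 2 of BasalTTX came close. Without that sample the change of Fos was 1.74 with an adjusted p of 0.00655, and it then passed.

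At 45 min Fos was 191 and 134 CPM, Fosb 76.6 and 36.1 CPM and Junb 65.97 and 58.7 CPM. Jun was 481 and 469 CPM and Fosl2 19.4 and 20.7 CPM. All of these lay above every BasalTTX sample. The changes were 4.15 ± 0.24 (log2 ± SE, adjusted p = 1.86e-15) for Fos, 3.58 ± 0.29 (adjusted p = 2.63e-11) for Fosb, 2.12 ± 0.25 (adjusted p = 4.94e-07) for Junb and 0.83 ± 0.14 (adjusted p = 0.000448) for Jun, whereas the change of Fosl2, 0.70 ± 0.29 (adjusted p = 0.388), did not pass. Thus 4 of 5 members rose, where 0.349% of all genes did. Ordered from the largest rise down, Fos ranked 3 and Fosb 6 among the 12027 genes tested.

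At 180 min Fos was back to 22.9, 26.5 and 44.04 CPM, Fosb to 17.01, 13.7 and 23.5 CPM and Junb to 12.4, 12.3 and 38.7 CPM, where replicate 3 was the highest of the 3 samples for each gene. Fosl2 had gone the other way, to 58.2, 28.4 and 50.1 CPM, and Jun was 450.1, 316 and 428 CPM. Against BasalTTX 3 of 5 members were higher (7.33% of all genes), Fosb by 1.92 ± 0.34 (log2 ± SE, adjusted p = 4.69e-05), Fosl2 by 1.85 ± 0.23 (adjusted p = 1.6e-07) and Fos by 1.75 ± 0.28 (adjusted p = 1.32e-05). Junb at this time was 0.48 ± 0.28 (log2 ± SE, adjusted p = 0.255) and Jun 0.57 ± 0.13 (adjusted p = 0.000941), just under 1.5-fold. Jun passed without BasalTTX replicate 1 or 2 or TTXwithdrawal replicate 2, at 0.61, 0.61 and 0.71. Set beside the untreated Basal cultures, the level of Fosl2 at 180 min was still below all of them, and those of Fos, Fosb, Jun and Junb overlapped with them. The astrocyte markers summed to 10873 to 15207 CPM at 180 min against 7409 to 8456 CPM in BasalTTX and the neuron markers to 2693 to 3211 CPM against 4522 to 5016 CPM, and their part in the levels at 180 min was not tested.

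**Figure D4:**
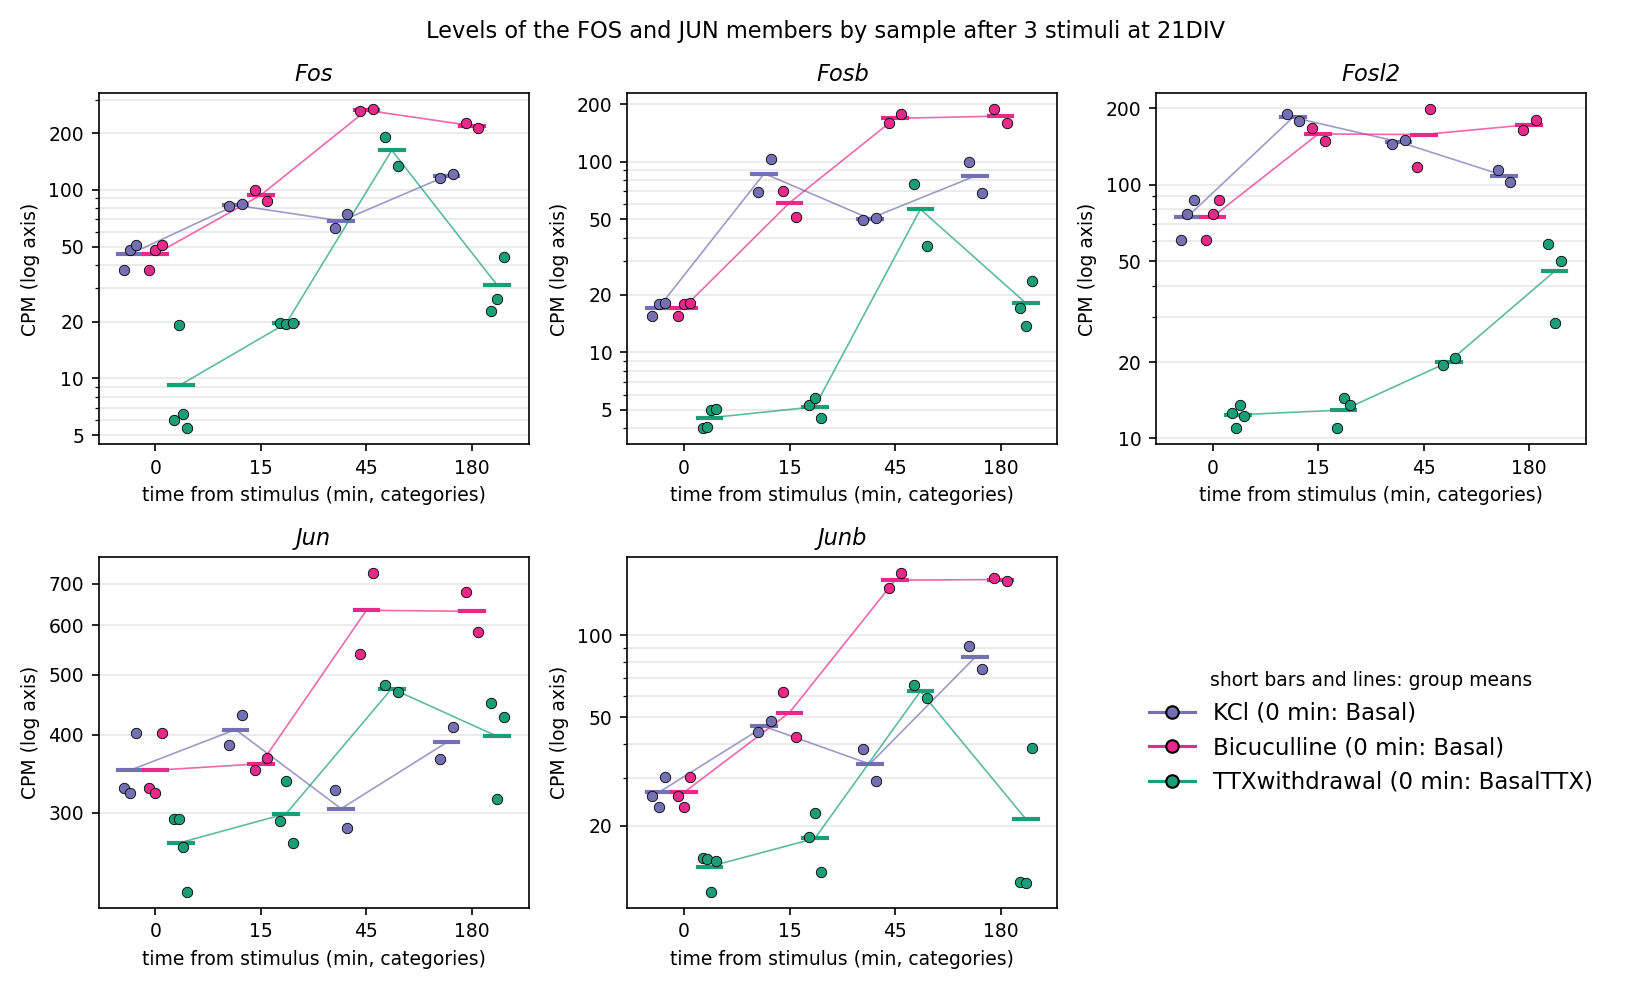
Level of each member in every sample of the stimuli experiment at 21DIV, in CPM on a log axis, at 0, 15, 45 and 180 min of KCl, bicuculline or TTXwithdrawal. Points are samples, short bars group means joined by lines, and the Basal samples are drawn for both KCl and bicuculline. After withdrawal Fos, Fosb and Junb are highest at 45 min and Fosl2 at 180 min, whereas after bicuculline the level at 45 min lasts to 180 min.

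Neighbouring times of each stimulus were also compared directly. From 15 to 45 min of withdrawal 4 of 5 members rose (0.258% of all genes), Fosb by 3.41 ± 0.31 (log2 ± SE, adjusted p = 1.46e-09), Fos by 3.04 ± 0.23 (adjusted p = 1.9e-11), Junb by 1.80 ± 0.26 (adjusted p = 4.47e-05) and Jun by 0.67 ± 0.15 (adjusted p = 0.0269). The call on Jun was lost without either sample of 45 min or without replicate 1 or 3 of 15 min (adjusted p 0.0764 to 0.464). From 45 to 180 min 3 of 5 fell (6.77% of all genes fell), with log2 differences of -2.41 ± 0.23 (log2 ± SE, adjusted p = 6.52e-10) for Fos, -1.66 ± 0.26 (adjusted p = 1.63e-05) for Fosb and -1.64 ± 0.27 (adjusted p = 2.47e-05) for Junb. Over the same interval 1 of 5 rose, Fosl2 by 1.14 ± 0.26 (log2 ± SE, adjusted p = 0.00182), where 5.56% of all genes rose. The opposite directions of Fosl2 and of the other 3 genes in this interval held with each sample left out.

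From 15 to 45 min of bicuculline 4 of 5 members rose (0.133% of all genes, or 16 genes), Junb by 1.56 ± 0.24 (log2 ± SE, adjusted p = 0.000205), Fos by 1.48 ± 0.22 (adjusted p = 0.00013), Fosb by 1.43 ± 0.22 (adjusted p = 0.000263) and Jun by 0.82 ± 0.16 (adjusted p = 0.00955). With a gene taken as the sum of its transcripts, the calls on Fos and Junb were lost at almost the same differences (adjusted p = 0.0967 for each). The call on Jun was lost without either sample of 15 min or without replicate 2 of 45 min (adjusted p 0.158 to 0.531). Fosl2 differed by -0.01 ± 0.20 (log2 ± SE) over the same interval. From 45 to 180 min 0 of 5 members passed by edgeR's quasi-likelihood test and 0 by DESeq2, with 0 at an unadjusted p under 0.05, where 3.04% of all genes passed. Their differences ran from -0.27 ± 0.20 for Fos to 0.12 ± 0.19 for Fosl2 (log2 ± SE). With KCl, 0 of 5 passed from 15 to 45 min (0.416% of all genes, by edgeR's quasi-likelihood test), 0 by DESeq2 and 2 at an unadjusted p under 0.05. These were Fosb at -0.79 ± 0.22 and Jun at -0.42 ± 0.16 (log2 ± SE). From 45 to 180 min of KCl 1 of 5 rose (0.0915% of all genes), Junb by 1.29 ± 0.26 (log2 ± SE, adjusted p = 0.0126). That call was lost under 7 alternatives. They include leaving out any one of the 4 samples, which gave log2 differences of 1.09 to 1.48. For KCl and bicuculline the samples of 45 min carried letter B and those of 180 min letter A, so the letter changed with time in this interval.

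The direct comparison of bicuculline with KCl at matched times asked whether the 2 stimuli gave equal levels. At 15 min 0 of 5 members differed by edgeR's quasi-likelihood test and 0 by DESeq2, as did 0% of all genes, and 1 member had an unadjusted p under 0.05, Fosb, lower with bicuculline, with a difference of -0.48 ± 0.23 (log2 ± SE). Over all genes 553 had such a p and DESeq2 called 1. At 45 min 4 of 5 were higher with bicuculline (0.499% of all genes). The differences at 45 min were 2.24 ± 0.24 (log2 ± SE, adjusted p = 5.28e-08) for Junb, 1.95 ± 0.22 (adjusted p = 1.02e-07) for Fos, 1.75 ± 0.22 (adjusted p = 1.22e-06) for Fosb and 1.06 ± 0.16 (adjusted p = 5.45e-05) for Jun, and each of these calls held with any sample left out. Fosl2 differed by 0.10 ± 0.19 (log2 ± SE, adjusted p = 0.929), with 117 and 198 CPM after bicuculline and 145 and 151 CPM after KCl. At 180 min the same 4 of 5 were higher with bicuculline (0.432%), by smaller amounts, Fosb by 1.06 ± 0.22 (log2 ± SE, adjusted p = 0.00828), Junb by 0.95 ± 0.23 (adjusted p = 0.0342), Fos by 0.88 ± 0.22 (adjusted p = 0.0353) and Jun by 0.70 ± 0.16 (adjusted p = 0.0248). At 180 min Fos, Jun and Junb lost the call without any one of the 4 samples (adjusted p 0.0522 to 0.317) and Fosb without replicate 2 of either stimulus (0.137 and 0.258), and summing counts over transcripts lost all 4.

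KCl at the same dose was used on older cultures in both experiments, which were normalized separately, so their values are set side by side with no test. After 180 min Fos was 72.2, 194 and 223 CPM at 23DIV and 115 and 122 CPM at 21DIV, with changes against the respective Basal of 3.45 and 1.39 (log2). Resting Fos was 11.3 to 21.6 CPM in the first and 37.5 to 51.2 CPM in the second. Jun changed by 1.55 and 1.87 at 15 and 180 min at 23DIV and by 0.22 and 0.15 at 21DIV, from resting levels of 159 to 223 and 322 to 402 CPM. Thus Jun passed after KCl in one experiment and not in the other, and this difference was not tested. Bicuculline at 50 μM was combined with 4-aminopyridine in the maturation experiment and used alone in the other, and after 180 min Jun was 1827 and 1507 CPM in the first and 679 and 585 CPM in the second.

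Across the 10 groups of the maturation experiment Fos was highest after 4APBic for 180 min at 23DIV, 298 ± 15.8 (SD, n = 2) CPM, and after KCl for 180 min at 7DIV, 290.1 ± 22.95 (SD, n = 3) CPM, groups that overlapped, and lowest in 23DIV Basal, 14.98 ± 5.76 (SD, n = 3) CPM, which no other group overlapped. Fosb was highest after KCl for 180 min at 7DIV, 419.5 ± 100.1 (SD, n = 3) CPM, above 4APBic for 180 min at 23DIV, 244 ± 44.2 (SD, n = 2) CPM, without overlap. As a ratio of its highest to its lowest group mean Fosl2 varied least, from 39.4 ± 8.82 (SD, n = 3) CPM in 23DIV Basal to 199 ± 90.2 (SD, n = 3) CPM after KCl for 180 min at 7DIV, and only 2 pairs of neighbours in its order did not overlap. Jun and Junb were highest after 4APBic for 180 min at 23DIV, at 1667 ± 226 (SD, n = 2) CPM and 272 ± 39.7 (SD, n = 2) CPM. For Jun no other group overlapped with it, whereas Junb there overlapped with KCl for 180 min at 7DIV, 208 ± 39.1 (SD, n = 3) CPM. Thus Fosb was highest in young cultures after KCl and Jun in older cultures after 4APBic, whereas the 2 highest groups of Fos, Fosl2 and Junb, which were these same groups, overlapped.

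Across the 11 groups of the stimuli experiment Fos ranged from 9.25 ± 6.62 (SD, n = 4) CPM in BasalTTX to 264 ± 3.92 (SD, n = 2) CPM at 45 min of bicuculline, and neighbours in its order overlapped only where Basal met withdrawal at 180 min. Fosb ranged from 4.53 ± 0.582 (SD, n = 4) CPM in BasalTTX to 173 ± 20.6 (SD, n = 2) CPM at 180 min of bicuculline, which overlapped with 45 min. Fosl2 was highest at 15 min of KCl, 184 ± 9.39 (SD, n = 2) CPM, and the 5 highest groups overlapped in turn. Jun ranged from 269 ± 32.7 (SD, n = 4) CPM in BasalTTX to 634 ± 133 (SD, n = 2) CPM at 45 min of bicuculline, and only its 3 highest groups stood apart from the others. Junb ranged from 14.2 ± 1.83 (SD, n = 4) CPM in BasalTTX to 160.2 ± 2.25 (SD, n = 2) CPM at 180 min of bicuculline. In each Basal group of both experiments Jun had the most 3′ end counts of the 5 members.

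Further members of the AP-1 network were described from fixed lists, chosen with earlier results of these data known. Of 15 tested proteins that pair or compete with FOS and JUN, 9 passed in at least 1 of the 17 stimulus comparisons, as did 11 of 23 kinases and factors upstream, 5 of 12 factors of mRNA or protein turnover and 6 of 7 known AP-1 target genes. Of all 12484 genes tested in either experiment, 32.7% passed in at least 1 of these comparisons. Zfp36 of the turnover list exceeded 5 CPM only at 45 min of withdrawal. Timp1 of the target list did so only in samples of KCl at 15 min and of withdrawal at 180 min. Both thus entered the tests through groups where they were high, which can raise the counts of their lists. Of 12 listed target genes, 7 were tested. After withdrawal for 180 min 6 of 15 partners rose and 1 fell, with a median log2 change of 0.64 over the list and 0.02 over all genes, of which 7.33% rose and 6.69% fell. In these samples the astrocyte markers summed to 10873 to 15207 CPM against 7409 to 8456 in BasalTTX. The neuron markers summed to 2693 to 3211 CPM against 4522 to 5016, and the part of either in the changes of the partners was not tested. Fosl1, the FOS gene that encodes Fra-1, had 0 to 2 counts per sample in BasalTTX and 53 to 61 counts at 180 min, or 36.4 ± 10.7 CPM (SD, n = 3). Maff, a small MAF protein, had 1 to 5 counts in BasalTTX, 19 to 30 at 45 min and 69 to 124 at 180 min. Atf3, an activating transcription factor of the stress response that can pair with JUN, rose at 180 min of withdrawal by 4.16 ± 0.21 (log2 ± SE, adjusted p = 3.32e-18) and after 4APBic for 180 min at 23DIV by 5.00 ± 0.57 (adjusted p = 5.02e-07), from 15.4 ± 10.1 to 494 ± 94.9 CPM (SD). Mafk rose after KCl for 180 min at 7DIV by 2.71 ± 0.35 (log2 ± SE, adjusted p = 1.54e-05).

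Of the upstream factors, Srf, which encodes serum response factor, rose at 7DIV after KCl for 180 min by 1.66 ± 0.27 (log2 ± SE, adjusted p = 0.000378). It was lower at 23DIV after 4APBic for 180 min, with a log2 change of -1.11 ± 0.30 (adjusted p = 0.0103). The 2 samples of that group stood apart, at 33.6 and 78.8 CPM against 92.8 to 141 at rest. In the stimuli experiment Srf was 27.9 to 38.7 CPM in Basal. It lay above that range at 15 min of KCl (58.5 to 74.2) and at 15 and 45 min of bicuculline (55.8 to 68.9 and 62.4 to 67.2). At 180 min of KCl it overlapped with Basal (36.1 to 41.2). After 4APBic for 180 min at 23DIV 6 of 21 upstream genes passed, each of them lower. The median log2 change was -0.31 over the list and -0.02 over all genes, of which 6.84% were lower. Among those lower was Mrtfb, a coactivator of serum response factor, with -1.14 ± 0.21 (log2 ± SE, adjusted p = 0.000416). Crem, of the CREB family, rose at 7DIV after KCl for 180 min by 1.56 ± 0.19 (log2 ± SE, adjusted p = 9.77e-06). Elk3, a partner of serum response factor, rose at 15 min of bicuculline by 1.75 ± 0.27 (log2 ± SE, adjusted p = 6.02e-05).

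Among the turnover genes Zfp36, whose protein binds AU-rich elements of mRNA, had 0 to 1 counts per sample in BasalTTX and 21 to 23 at 45 min of withdrawal, or 11.7 ± 0.924 CPM (SD, n = 2). Its relative Zfp36l1 rose at that time by 0.73 ± 0.14 (log2 ± SE, adjusted p = 0.00256). Fbxw7, of the ubiquitin ligase that marks JUN, rose at 45 min of bicuculline by 0.80 ± 0.15 (log2 ± SE, adjusted p = 0.000299), and Tia1, an RNA-binding protein, fell after 4APBic for 180 min at 23DIV, with a log2 change of -0.85 ± 0.21 (adjusted p = 0.00555). Of the 7 tested AP-1 target genes, 3 rose and 2 fell at 180 min of withdrawal, where 7.33% of all genes rose and 6.69% fell, with a median log2 change of -0.13 over the list. Hmox1, heme oxygenase, rose by 2.80 ± 0.16 (log2 ± SE, adjusted p = 7.76e-17) and Ccnd1, cyclin D1, by 1.81 ± 0.12 (adjusted p = 1.21e-14), in samples where the glial markers were also higher, the part of which was not tested. Scg2, a precursor of neuropeptides, rose after 4APBic for 180 min at 23DIV by 1.82 ± 0.18 (log2 ± SE, adjusted p = 4.96e-08), from 657 ± 145 to 2316 ± 109.7 CPM (SD). Timp1, an inhibitor of metalloproteases, had 1 to 3 counts per sample in Basal and 12 to 15 at 15 min of KCl.

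Genes with the most similar profile were sought among 8736 others by the root mean square difference of their log2 changes from those of a member over the 17 comparisons, several of which share controls. For Fos the nearest were Nr4a2 (0.871), Npas4 (0.932) and Klf4 (1.00), where the median over all candidates was 2.18. For Fosb they were Nr4a2 (0.899), Npas4 (0.914) and Nr4a1 (1.10), with a median of 2.41, and for Junb Npas4 (0.528), Egr4 (0.678) and Nr4a2 (0.707), with a median of 1.81. Thus Nr4a2, a nuclear receptor, and Npas4, a neuronal activity-dependent factor, were near all 3. The nearest to Fosl2 were Dusp4 (0.377), Bdnf (0.382) and Rgs2 (0.395), with a median of 1.10, and to Jun Slc16a1 (0.539), Dusp1 (0.553) and Otud1 (0.553), with a median of 1.14. The 3 genes named for Fosl2 or Jun were none of those named for Fos, Fosb or Junb. Between members the difference was smallest for Fosl2 and Jun (0.686), followed by Fos and Junb (0.738) and Fos and Fosb (0.806), and largest for Fosb and Jun (1.62). Fosl2 lay farther from Fos (1.37) and Fosb (1.47) than from Jun. The measure grows with the size of the changes, and the median over all candidates was 1.10 for Fosl2 and 1.14 for Jun. For Fos and Fosb it was 2.18 and 2.41. The order between members thus mixes size with shape, and likeness in shape alone was not tested.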

How the data were processed

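The authors deposited counts of reads per RefSeq transcript, with no normalization, from 3′ end libraries (CEL-Seq2) aligned to mm10 with STAR and counted with ESAT. Whether molecular identifiers were collapsed before counting is not given in the sources used here. Transcripts were matched to symbols by accession in the RefSeq table of GRCm38.p6, and 80.8% and 80.9% of the 97700 and 96722 transcripts of the 2 experiments matched. Each gene was represented by its transcript with most counts. Unmatched transcripts, which held 18.5% and 19.2% of the counts, were not used here. The test by edgeR 4.0.16 (R 4.3.3, TMM scaling, quasi-likelihood test, Benjamini-Hochberg adjustment) took genes that exceeded 5 CPM in 2 samples or more, with 1 fit per experiment and a separate fit of the 6 Basal samples for the comparison of stages at rest. A call needs an adjusted p under 0.05 and at least 1.5-fold, or the adjusted p alone for differences between responses. DESeq2 1.42.0 was an alternative. The edgeR step was tested on simulated data. The members and gene lists were chosen with earlier results of these data known. Named were all members, up to 4 genes of each list with the largest log2 change among those that passed in any of the 17 stimulus comparisons, and the 3 genes nearest to each member in profile among those with an average log2 CPM of at least 3 in both experiments. The term for the letter of the sample descriptions was chosen after seeing the data. Same-numbered samples did not deviate together (correlations from -0.271 to 0.126 over 36 pairs), so no pairing was used.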

Additional observations from a re-analysis of the deposited data

Results flagged for a closer look

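At rest under tetrodotoxin, Fos in replicate 2 of BasalTTX was 19.2 CPM and Junb in replicate 3 was 11.4 CPM, each far from the other 3 samples of the group relative to its range. BasalTTX, with n = 4, was the only group large enough for this check, so no sample of any other group could be marked. It was run for each of the 5 tested members. Chance alone marks about 1 in 20 groups in this way, and the 2 values came from different samples. All other values marked here are differences of a response between 23DIV and 7DIV, on the log2 scale, that passed the test of the difference itself. After 15 min of KCl the response was larger at 23DIV by 1.58 for Fos, 2.54 for Fosb and 1.79 for Jun. After 15 min of 4APBic it was larger by 2.06 for Junb. After 180 min of 4APBic it was larger by 3.64 for Fos, 4.56 for Fosb, 1.83 for Fosl2, 2.90 for Jun and 3.16 for Junb.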

How the results depend on the processing

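Of 117 member values that passed or had an unadjusted p under 0.05, none changed direction under any of the 1674 alternatives, and 61 of the 88 that passed kept their call under all that were run. The 117 were picked by their p in the same data, so a stable direction was likely from the start. Of the 43 other member values, 16 had the opposite sign under some alternative. Without the filter on low counts, 8 in place of 4 member calls were made at 7DIV and 16 in place of 9 for the differences between stages. When a gene was the sum of its transcripts, 4 in place of 8 were made for bicuculline against KCl and 8 in place of 13 between neighbouring times. In these 4 cases the cause was not tested. With 1 sample left out, the number of calls ranged from 3 to 5 at 7DIV, 12 to 17 at 23DIV (17 with all samples), 6 to 13 for the differences between stages, 12 to 14 for bicuculline, 7 to 9 for KCl, 7 to 9 for withdrawal, 4 to 8 for bicuculline against KCl and 12 to 13 between neighbouring times. It was 3 at rest between stages and 4 for BasalTTX each time. DESeq2 made 12 calls for the differences between stages where edgeR made 9. With the replicate number as a block, Junb lost its call for BasalTTX (-0.81, adjusted p = 0.0652) and gained one at rest between stages (-0.91, adjusted p = 0.0382), and the number of calls for bicuculline against KCl was 6 in place of 8. The letter of the descriptions as a term gave 11 in place of 14 calls for bicuculline and 6 in place of 9 for KCl. Depth limited Fosl1, Maff, Zfp36 and Timp1, which had few counts in the control samples. Members also had low counts in BasalTTX, with 6 to 14 per sample for Fosb and 9 to 33 for Fos.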
